A study of Mus musculus with 57 samples.

Results

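A set of 9 genes of oxidative drug and aldehyde metabolism was followed through 7 liver injuries in mice, 6 from chemicals and 1 from the lectin concanavalin A (called compounds here for short): the flavin monooxygenases Fmo1, Fmo2 and Fmo5, the alcohol dehydrogenases Adh1 and Adh4, the aldehyde dehydrogenases Aldh1a1, Aldh2 and Aldh3a2, and the aldehyde oxidase Aox3. Members were taken by symbol, each from the row whose Ensembl gene ID carries it, which gave 9 of the 54307 genes in the table with 1 row each. RNA was sequenced from 57 livers of male wild-type C57BL/6JJcl mice, which were 6 weeks old, had 1 week to acclimatise, were fasted for 12 h before dosing and were killed 24 h after it. By gavage, 4 mice received ANIT (alpha-naphthyl isothiocyanate), 6 APAP (acetaminophen), 7 MDA (4,4'-methylene dianiline) and 5 TAA (thioacetamide), and 13 controls, called Ctrl, received 0.5% methylcellulose. By intraperitoneal injection, 7 mice received CCl4 (carbon tetrachloride) and 4 GAL (galactosamine), against 2 controls on 0.9% saline called CIP. By tail vein, 7 mice received ConA (concanavalin A), against 2 saline controls called CIV. The labels also name corn oil among the vehicles but no control group had it, so for any compound given in corn oil the compound and the oil cannot be told apart. Livers were perfused, a piece of the outer part of the left lateral lobe gave the RNA, and the study collected these livers to test a method that estimates cell types from bulk RNA.

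Flavin monooxygenases sit in the endoplasmic reticulum and add oxygen to the nitrogen or sulphur of drugs and dietary amines. Alcohol dehydrogenases oxidise alcohols, ethanol and retinol among them, to aldehydes, and aldehyde dehydrogenases carry the aldehydes on to acids. Aldehyde oxidases are molybdenum enzymes of the cytosol that oxidise aldehydes and nitrogen heterocycles. The liver is a main site of all these steps, and hepatocytes hold most of the enzymes.

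The smallest library held 13826343 estimated counts, the median 21532116 and the largest 35075809, and mitochondrial genes took 5.12% to 39.3% of a library. Libraries of ConA mice had mitochondrial shares of 14.6% to 39.3% and TMM factors of 0.477 to 0.951, against 6.80% and 25.4% with factors of 1.10 and 0.914 in CIV, while GAL libraries had factors of 1.599 to 1.776 against 1.08 and 0.959 in CIP. The part of these values in the ConA and GAL results was not tested. Levels are given as CPM, the usual depth-scaled unit, from estimated counts after TMM scaling over all 57 mice. For 10599 single-transcript genes, longer transcripts had smaller lowest non-zero values (Spearman's rho across genes -0.948), with a slope of -1.257 on log10 scales from 1000 bases up. The values may thus carry a length correction, which no source used here states, and levels of different genes are set side by side only on the deposited scale. Differences are log2 fold changes of compound minus vehicle from edgeR's quasi-likelihood test, with a standard error (SE) and a Benjamini-Hochberg adjusted p over all genes tested, and a gene is called changed under 0.05. All 9 members passed the filter on low counts in every comparison. No label says that mice shared a cage, litter or day, and p-values measure the spread between these mice. In bulk liver, fewer cells of a type and less RNA per cell cannot be told apart.

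The members fell more often than they rose. Against the vehicle of the same route, ANIT changed 5 of 9 members, 2 higher and 3 lower (of all genes tested 28.2% were called, 14% higher and 14.2% lower). APAP lowered 6 and raised none (31.8% of all genes called, 17.3% higher and 14.6% lower). MDA raised 2 and lowered 3 (33.8%, with 17.4% higher and 16.4% lower), and TAA raised 1 and lowered 6 (50.5%, with 26.4% higher and 24% lower). CCl4 lowered 7 of 9 (33.5% of all genes called, 18% higher and 15.6% lower), GAL lowered 6 (28.5%, with 12.8% higher and 15.7% lower) and ConA lowered 6 (34.2%, with 16.8% higher and 17.3% lower), and none rose with these 3. The GAL count depended on single mice: it was 1 without CIP mouse 7, 2 without CIP mouse 8, 3 without GAL mouse 4 and 2 without GAL mouse 8, and the 1 was Aox3. The median member log2 fold change was -0.01 with ANIT, -1.43 with APAP, -0.30 with MDA, -1.02 with TAA, -0.95 with CCl4, -1.75 with GAL and -1.68 with ConA, while the median over all genes tested lay between -0.01 and 0.10. Against all 17 vehicle mice, ANIT raised 2 members and lowered 3 (28% of all genes called, 13.5% higher and 14.5% lower), MDA raised 2 and lowered 4 (34.2%, with 17.2% higher and 17.1% lower), and the other compounds raised none. There APAP lowered 8 (33.4%, with 18.1% higher and 15.3% lower), TAA 6 (49.7%, with 25.2% higher and 24.5% lower), CCl4 8 (53.4%, with 26.2% higher and 27.2% lower), GAL 8 (52.5%, with 25.1% higher and 27.5% lower) and ConA 8 (68%, with 34.3% higher and 33.7% lower). The members whose mice did not overlap the route vehicle at all numbered 2 with ANIT (8.98% of all genes tested did so), 5 with APAP (6.75%), 2 with MDA (4.81%), 2 with TAA (20.1%), 7 with CCl4 (40.6%), 9 with GAL (52.1%) and 6 with ConA (39.7%). For the last 3 the vehicle group had 2 mice. These comparisons share the vehicle mice, and the 4 gavage compounds share all 13 Ctrl mice.

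**Figure D1:**
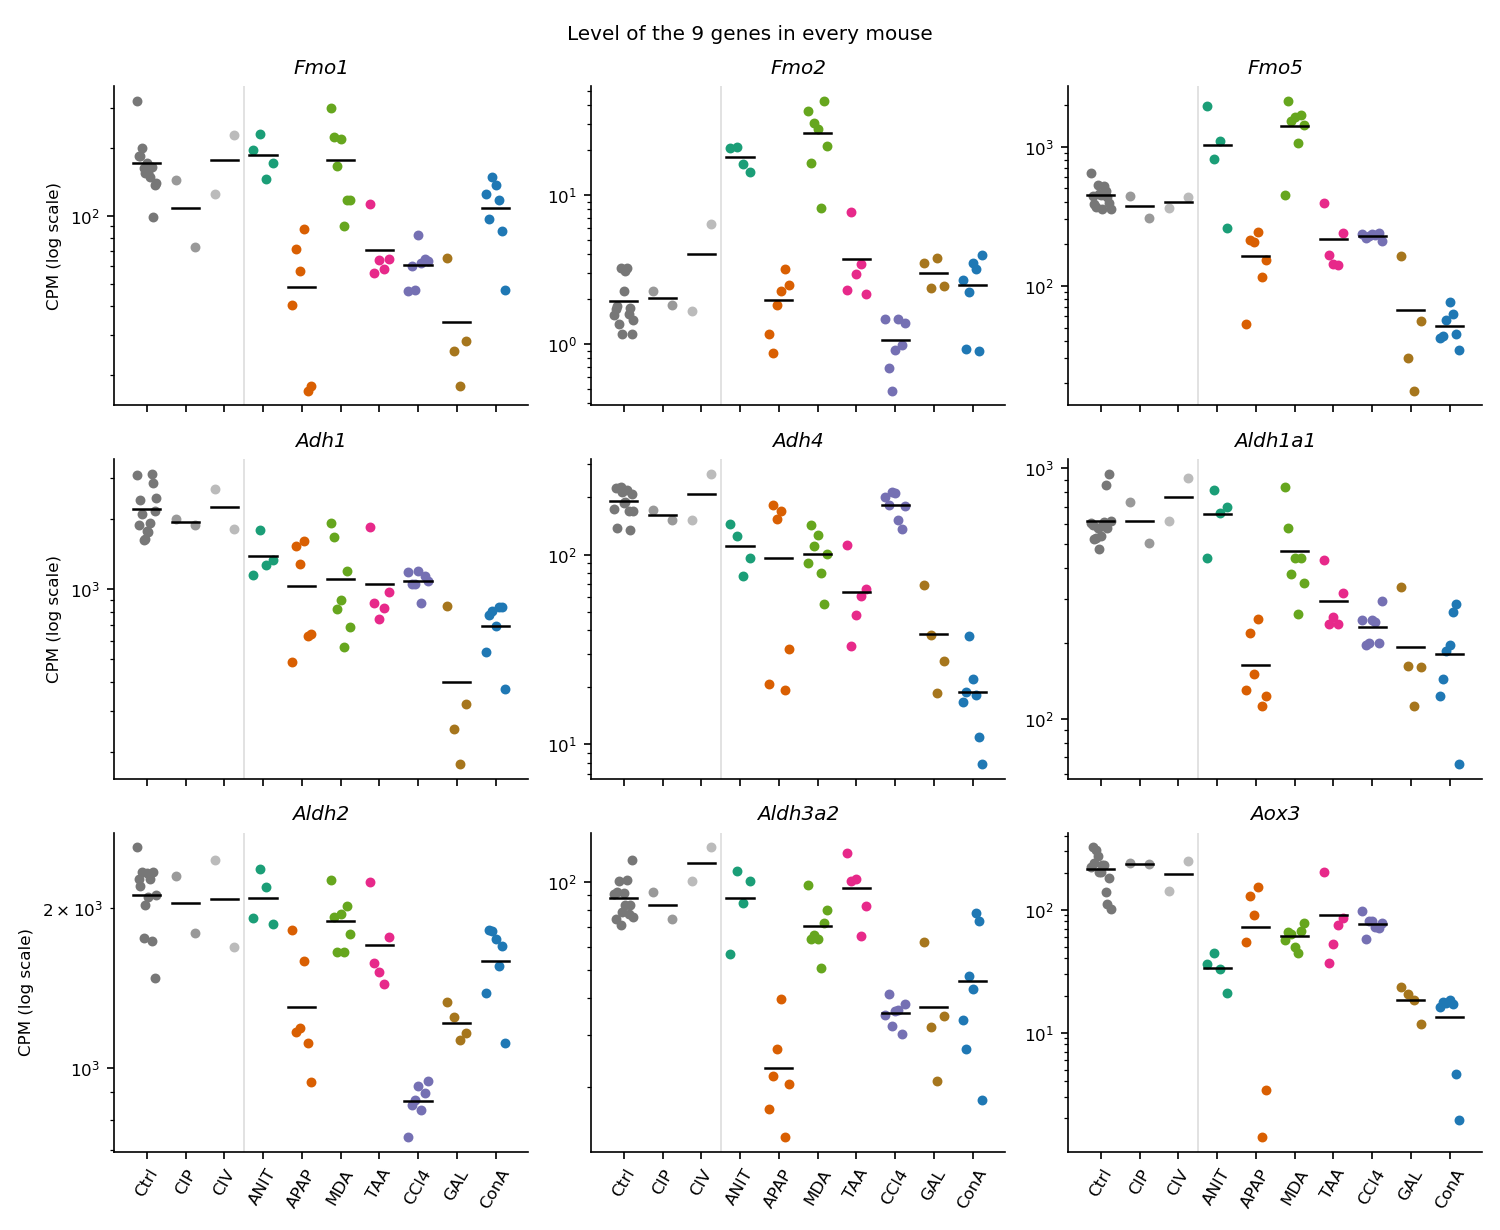
Level of each of the 9 genes in every mouse, as CPM on a log axis; points are mice, black lines are group means, and the grey line parts the 3 vehicle groups from the 7 compounds. Fmo2 stands above every vehicle mouse in all ANIT and MDA mice. Fmo5 means are 1033 and 1418 CPM with ANIT and MDA against 448.2 in Ctrl. For Fmo5, ANIT mouse 4 lies below every vehicle mouse, at 261.9 CPM, and MDA mouse 1 within the Ctrl range, at 446.9. Aox3 and Adh4 reach their lowest means with ConA, at 13.3 and 18.9 CPM.

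Scaling matters most for GAL, CCl4 and ConA. Library totals, used as the scaling in place of TMM, moved the all-gene median on the log2 scale by 0.76 for GAL, 0.43 for CCl4 and -0.59 for ConA against the route vehicle, and by 0.16 for APAP and -0.22 for ANIT. Higher calls made up 44.9% of all calls for GAL with TMM and 86.7% with library totals, 53.5% and 80.6% for CCl4, 49.3% and 22.7% for ConA, 54.3% and 72.5% for APAP, and 49.5% and 23.7% for ANIT. Among the members, library totals left 2 calls for GAL (Fmo2 higher, Aox3 lower), gave 6 for CCl4 (Adh4 higher, 5 lower) and gave 8 for ConA, all lower. For ANIT and APAP the same members were called under both scalings against the route vehicle, but against all vehicles APAP called 6 with library totals in place of 8, without Adh4 and Aox3. Between compounds, higher calls made up 39.35% of all calls with TMM and 9.00% with library totals for ANIT against APAP, 42.3% and 23.9% for ANIT against TAA, 57.1% and 75.7% for APAP against MDA, and 52.2% and 32.7% for CCl4 against GAL.

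Some calls against the route vehicle also ended when fewer or more mice were fitted. With only mice numbered 1 to 4, Fmo5 (1.15, edgeR adjusted p = 0.159) and Adh4 (-0.80, edgeR adjusted p = 0.0503) were no longer called with ANIT, although all 4 ANIT mice were kept. In the same setting APAP lost Fmo5 (-1.50, edgeR adjusted p = 0.0905), Aldh2 (-0.67, edgeR adjusted p = 0.131) and Adh1, MDA lost Adh1 and Adh4, and TAA lost Fmo5, Adh1, Adh4, Aldh1a1 and Aox3. With only mice numbered above 4, TAA lost Fmo2. In 1 fit of all 57 mice, ANIT lost Adh1 and Adh4 (-0.79, edgeR adjusted p = 0.158), and CCl4 lost Fmo1, Fmo5, Adh1 and Aox3.

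The vehicle groups showed no called member. CIP against Ctrl called 0 of 9 members by edgeR's quasi-likelihood test (0 at an unadjusted p under 0.05; 0 by DESeq2; 0.0131% of all genes called), and CIV against Ctrl also 0 of 9 (2 at an unadjusted p under 0.05; 0 by DESeq2; 0.0263% of all genes called). With 2 mice in each saline group these comparisons can show large differences only. Among the Ctrl mice, the 4 numbered 1 to 4 were set against the 9 numbered above 4, since several groups hold both ranges: 0 of 9 members were called (2 at an unadjusted p under 0.05; 2.33% of all genes called). Fmo1 was higher in all 4 of the first range, 183.2 to 323.3 CPM, than in the other 9, 99.5 to 172.1 CPM, with a log2 difference of 0.60 (SE 0.15, edgeR adjusted p = 0.0617). With library totals it was 0.25 (edgeR adjusted p = 0.181), and the calls over all genes went from 83 higher and 238 lower to 20 and 746.

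Fmo2 gave the largest rises. It is the flavin monooxygenase best known from lung, and its level in control liver was the lowest of the 9 members. In Ctrl, Fmo2 ran from 1.16 to 3.23 CPM with a median of 1.72, and the CIP mice stood at 2.27 and 1.81 and the CIV mice at 1.65 and 6.36 CPM. The 4 ANIT mice stood at 20.6, 21.0, 16.2 and 14.2 CPM, and the 7 MDA mice ran from 8.12 to 43.1 with a median of 27.6 CPM. Every ANIT and MDA mouse lay above all 17 vehicle mice. The log2 fold change of Fmo2 was 3.20 with ANIT (SE 0.24, edgeR adjusted p = 1.222e-07) and 3.75 with MDA (SE 0.27, edgeR adjusted p = 2.611e-09).

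TAA also raised Fmo2, by 0.97 on the log2 scale (SE 0.29, edgeR adjusted p = 0.00942), with mice at 2.30, 7.71, 2.96, 3.43 and 2.14 CPM. That call rested on TAA mouse 3: without it the value was 0.51 (edgeR adjusted p = 0.126). Against all vehicles, TAA gave 0.78 (edgeR adjusted p = 0.0553). With the other compounds Fmo2 was not called against the route vehicle, and APAP mice at 0.87 to 3.20 CPM overlapped the controls. GAL mice, at 2.36 to 3.74 CPM, gave 0.49 against CIP, and with library totals 1.24, which passed (edgeR adjusted p = 0.0332). CCl4 mice had the lowest mean, with mice at 0.48 to 1.47 CPM, which passed against all vehicles (log2 fold change -1.11, SE 0.31, edgeR adjusted p = 0.00336) but not against CIP (-0.95, edgeR adjusted p = 0.104) or against all vehicles with library totals (-0.57, edgeR adjusted p = 0.0998).

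The 250 bases before the Fmo2 start are shown because Fmo2 rose most of the members. This is RefSeq sequence on the minus strand of GRCm38.p6, chr1:162898494-162898743. It comes from the entry with bases just after its start that occur near the beginning of a GENCODE transcript. Capitals mark a C/EBP-type motif, TTGCNNAA, and a nuclear receptor hexamer, AGGTCA, searched on both strands.
Fmo2: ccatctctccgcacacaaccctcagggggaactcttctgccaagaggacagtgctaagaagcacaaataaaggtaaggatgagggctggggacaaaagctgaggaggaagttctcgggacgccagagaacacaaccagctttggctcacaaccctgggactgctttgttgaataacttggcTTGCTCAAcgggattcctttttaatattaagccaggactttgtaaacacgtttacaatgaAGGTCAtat
Of 32851 promoter windows of this length in the same table, 9.56% hold the first motif and 14% the second, and a match is a description of letters only. Another RefSeq entry for Fmo2 starts elsewhere and also holds 1 C/EBP-type match. Entries were found for 7 of the 9 members.

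Fmo5 rose with ANIT and MDA and fell with 4 other compounds. Fmo5 is an atypical family member that acts as a Baeyer-Villiger oxygenase and is abundant in liver. Ctrl mice ran from 355.4 to 647.6 CPM with a median of 444.4, CIP mice stood at 438.7 and 305.0, and CIV mice at 363.4 and 433.2 CPM. MDA mice ran from 446.9 to 2147 with a median of 1524 CPM, and 6 of the 7 lay above all controls. ANIT mice stood at 1955, 809.5, 1104 and 261.9 CPM, so that ANIT mouse 4 lay below every control and the other 3 above. The log2 fold change was 1.67 with MDA (SE 0.19, edgeR adjusted p = 1.143e-06) and 1.21 with ANIT (SE 0.28, edgeR adjusted p = 0.00363). Without ANIT mouse 1 it was 0.69 (edgeR adjusted p = 0.0553).

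In the other direction, Fmo5 fell by 2.94 on the log2 scale with ConA (SE 0.25, edgeR adjusted p = 4.608e-05), where the 7 mice ran from 34.3 to 75.9 CPM. It fell by 1.43 with APAP (SE 0.22, edgeR adjusted p = 8.205e-05), by 1.00 with TAA (SE 0.22, edgeR adjusted p = 0.000748) and by 0.71 with CCl4 (SE 0.12, edgeR adjusted p = 0.00168). The CCl4 mice were tightly grouped, at 210.8 to 237.5 CPM, and with library totals their difference was -0.29 (edgeR adjusted p = 0.201). GAL mice stood at 164.5, 30.1, 17.6 and 55.3 CPM, all below CIP, with a log2 difference of -2.56 that missed the threshold (SE 0.80, edgeR adjusted p = 0.0551). Without GAL mouse 2 that difference was -3.50 and passed (edgeR adjusted p = 0.00358). Against all vehicles GAL gave -2.78, which passed with TMM and under each of the 13 alternatives run.

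Fmo1, a main drug-oxidising form in mouse liver and kidney, did not rise with any compound. Ctrl mice ran from 99.5 to 323.3 CPM with a median of 162.6, CIP mice stood at 144.3 and 73.3, and CIV mice at 125.5 and 228.4 CPM. APAP mice ran from 17.0 to 87.5 CPM with a median of 49.0, all below the lowest Ctrl mouse, giving -1.79 on the log2 scale (SE 0.31, edgeR adjusted p = 0.000236). TAA mice stood at 112.6, 56.0, 64.1, 58.5 and 64.4 CPM, giving -1.22 on that scale (SE 0.22, edgeR adjusted p = 0.000132). GAL mice stood at 65.6, 25.5, 17.9 and 28.1 CPM (-1.74, SE 0.52, edgeR adjusted p = 0.0483), a call lost with library totals (-0.96), with no filter on low counts, and without GAL mouse 4, 7 or 8 or either CIP mouse. CCl4 mice ran from 46.6 to 82.2 CPM (-0.84, SE 0.24, edgeR adjusted p = 0.0250), and without CIP mouse 7 the value was -0.30 (edgeR adjusted p = 0.452). Library totals gave -0.43 for CCl4 (edgeR adjusted p = 0.303). Against all vehicles Fmo1 gave -2.34 with GAL and -1.475 with CCl4, and both passed with TMM and under each of the 13 and 15 alternatives run.

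Fmo1 was not called with ANIT (0.11, SE 0.20), MDA (0.05, SE 0.21) or, against CIV, ConA (-0.68, SE 0.37, edgeR adjusted p = 0.180). The ConA difference passed against all vehicles (-0.50, SE 0.21, edgeR adjusted p = 0.0410) and, with library totals, against CIV (-1.31, edgeR adjusted p = 0.00958). ANIT, at 145.0 to 230.4 CPM, and MDA, at 90.2 to 299.1 CPM, overlapped the Ctrl range. Fmo1 and Fmo2 are neighbours on chromosome 1, in a cluster with Fmo4 and Fmo6, and Fmo5 is alone on chromosome 3.

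Adh1 fell with all 7 compounds against the route vehicle. Adh1 is the class I enzyme that carries out most ethanol oxidation in liver, and in Ctrl it and Aldh2 had the highest deposited values of the members, with means of 2224 ± 533.3 and 2121 ± 307.3 CPM (SD, n = 13). Ctrl mice ran from 1632 to 3137 CPM with a median of 2110, CIP mice stood at 1999 and 1890, and CIV mice at 2712 and 1808 CPM. ANIT mice stood at 1152, 1805, 1270 and 1338 CPM, of which 1 lay within the Ctrl range, a log2 difference of -0.68 (SE 0.19, edgeR adjusted p = 0.0117). CCl4 mice ran from 869.8 to 1202 CPM (-0.85, SE 0.11, edgeR adjusted p = 0.000453), and ConA mice from 370.3 to 835.4 CPM (-1.68, SE 0.30, edgeR adjusted p = 0.00201). In 1 fit of all 57 mice the calls with ANIT (-0.69, edgeR adjusted p = 0.112) and CCl4 (-0.89, edgeR adjusted p = 0.101) were lost, while with only mice numbered 1 to 4 the calls with APAP, MDA and TAA were lost (-0.78 to -1.07).

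With GAL, Adh1 stood at 848.5, 250.4, 176.7 and 320.6 CPM, a log2 difference of -2.36 (SE 0.57, edgeR adjusted p = 0.0262). Under TMM this was the largest Adh1 fall of the 7 and that of ANIT the smallest, but with library totals the largest was that of ConA (-2.34) and the smallest that of CCl4 (-0.42). The GAL call was lost without GAL mouse 4, GAL mouse 8, CIP mouse 7 or CIP mouse 8 and with library totals (-1.55, edgeR adjusted p = 0.0828), while against all vehicles it was -2.54 (edgeR adjusted p = 5.326e-07). APAP gave -1.09 (SE 0.24, edgeR adjusted p = 0.00179) over mice at 485.5 to 1612 CPM. MDA gave -0.995 (SE 0.22, edgeR adjusted p = 0.00146) over 563.0 to 1931 CPM, and 2 MDA mice lay within the Ctrl range. TAA gave -1.03 (SE 0.23, edgeR adjusted p = 0.000881), with mice at 1855, 870.6, 744.5, 827.9 and 975.3 CPM, where only TAA mouse 1 lay within the Ctrl range.

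Adh4, the class II enzyme, which also oxidises retinol, fell with 5 compounds and stood at control level with CCl4. Ctrl mice ran from 135.3 to 226.7 CPM with a median of 189.1, CIP mice stood at 171.6 and 152.2, and CIV mice at 151.7 and 266.2 CPM. ConA mice ran from 7.87 to 37.2 CPM with a median of 18.1 (log2 fold change -3.45, SE 0.42, edgeR adjusted p = 0.000262). GAL mice stood at 69.1, 37.9, 18.6 and 27.5 CPM (-2.16, SE 0.46, edgeR adjusted p = 0.0179), a call lost with library totals (-1.36) and without GAL mouse 8 or either CIP mouse, and against all vehicles GAL gave -2.39 (edgeR adjusted p = 7.609e-08). TAA mice stood at 111.8, 32.8, 47.8, 60.7 and 65.8 CPM, all below Ctrl (-1.54, SE 0.22, edgeR adjusted p = 8.701e-06).

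With ANIT Adh4 stood at -0.79 on the log2 scale (SE 0.17, edgeR adjusted p = 0.00188) and with MDA -0.91 (SE 0.15, edgeR adjusted p = 0.000106). CCl4 mice ran from 137.0 to 214.2 CPM, with a log2 difference of 0.17 from CIP (SE 0.18, edgeR adjusted p = 0.506). Against all vehicles that difference was -0.09 with TMM and 0.45 with library totals (edgeR adjusted p = 0.00284), so its direction depends on the scaling. APAP mice were split: mice 1, 8 and 11 stood at 20.7, 19.2 and 31.7 CPM and mice 2, 4 and 6 at 181.6, 154.9 and 170.7 CPM, within the Ctrl range. The APAP difference of -0.97 missed the threshold against Ctrl (SE 0.39, edgeR adjusted p = 0.0622) and passed against all vehicles (-0.97, SE 0.35, edgeR adjusted p = 0.0370). That pass was lost with library totals, no filter, mice numbered 1 to 4 only, and without APAP mouse 1, 8 or 11 (values -0.64 to -0.98).

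Aox3 fell with 6 compounds against the route vehicle and with all 7 against all vehicles. It is the main aldehyde oxidase of mouse liver. The Ctrl range was 100.8 to 320.7 CPM, with a median of 222.6, CIP mice stood at 237.0 and 235.2, and CIV mice at 141.1 and 246.2 CPM. ConA mice ran from 1.96 to 18.3 CPM with a median of 17.1 (log2 fold change -3.84, SE 0.60, edgeR adjusted p = 0.00100). The 4 GAL mice had 23.3, 20.7, 18.3 and 11.8 CPM (-3.74, SE 0.27, edgeR adjusted p = 0.00208). ANIT mice stood at 36.2, 44.4, 32.6 and 21.0 CPM, all below every control (-2.67, SE 0.31, edgeR adjusted p = 1.117e-05). The falls with GAL and ConA passed under each of the 12 and 14 alternatives run for them.

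MDA mice had 44.6 to 77.0 CPM of Aox3, all below every control (-1.80, SE 0.21, edgeR adjusted p = 1.787e-06), and CCl4 mice 57.6 to 96.5 CPM (-1.63, SE 0.16, edgeR adjusted p = 6.305e-05), where 1 fit of all 57 mice gave -1.66 (edgeR adjusted p = 0.0632). TAA mice stood at 200.5, 36.5, 52.6, 75.1 and 84.9 CPM, where TAA mouse 1 lay within the Ctrl range and the other 4 below it (-1.19, SE 0.34, edgeR adjusted p = 0.00659). APAP mice stood at 54.6, 128.0, 90.1, 152.9, 1.40 and 3.40 CPM for mice 1, 2, 4, 6, 8 and 11. The APAP difference of -1.54 missed the threshold against Ctrl (SE 0.61, edgeR adjusted p = 0.0610) and passed against all vehicles (-1.55, SE 0.55, edgeR adjusted p = 0.0330). That pass was lost with library totals, mice numbered above 4 only, and without APAP mouse 1 (values -1.39 to -1.87).

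Aox3 and Adh4 are shown together because their levels moved together across the 57 mice, with Pearson's r of 0.85 for log2(CPM + 1), a description over mice that share treatments and vehicles. Both windows are 250 bases before the RefSeq start on the plus strand of GRCm38.p6, Aox3 at chr1:58112886-58113135 and Adh4 at chr3:138415247-138415496. Capitals mark the CCAAT box, CCAAT or its reverse complement ATTGG, and in Adh4 also AGGTCA hexamers.
Aox3: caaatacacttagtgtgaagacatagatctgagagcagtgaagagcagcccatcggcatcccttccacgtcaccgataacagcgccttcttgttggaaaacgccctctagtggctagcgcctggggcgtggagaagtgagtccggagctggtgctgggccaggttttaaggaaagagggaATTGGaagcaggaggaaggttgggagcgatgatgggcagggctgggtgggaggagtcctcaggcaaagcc
Adh4: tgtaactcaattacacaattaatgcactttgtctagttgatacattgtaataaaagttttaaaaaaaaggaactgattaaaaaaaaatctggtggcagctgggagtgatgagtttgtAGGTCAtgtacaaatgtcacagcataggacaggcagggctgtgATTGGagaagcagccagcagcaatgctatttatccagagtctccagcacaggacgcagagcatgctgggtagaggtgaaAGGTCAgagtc
Aox3 holds 1 CCAAT box, and Adh4 holds 1 CCAAT box and 2 hexamers. In the same table, 33.8% of 32851 windows of this length hold a CCAAT box.

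**Figure D2:**
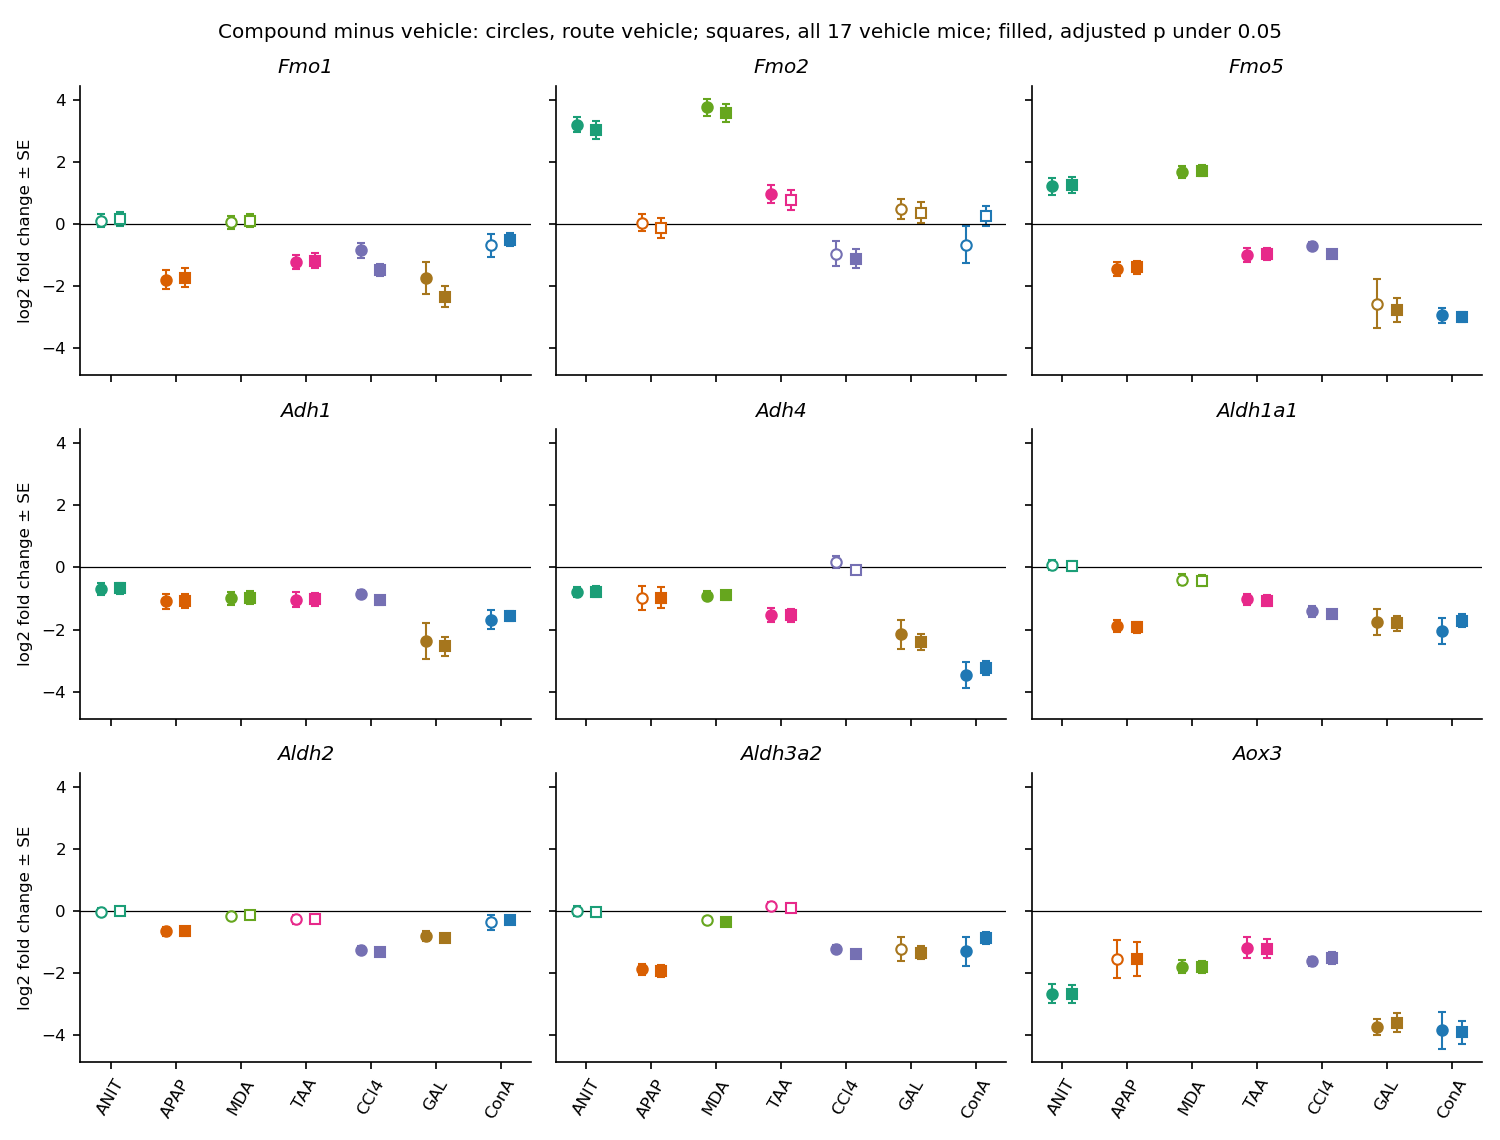
Log2 fold change of compound minus vehicle for each gene, with its standard error; circles are against the route vehicle, squares against all 17 vehicle mice, and filled symbols have an edgeR adjusted p under 0.05. Fmo2 and Fmo5 lie above 0 with ANIT and MDA, and all Adh1 symbols are filled and below 0.

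Aldh1a1 fell with 5 compounds. It is a cytosolic enzyme that makes retinoic acid from retinal. The Ctrl range was 477.7 to 948.8 CPM, with a median of 587.2, CIP mice stood at 733.7 and 502.2, and CIV mice at 616.0 and 916.6 CPM. APAP mice ran from 111.8 to 250.6 CPM, all below every control (log2 fold change -1.88, SE 0.19, edgeR adjusted p = 7.87e-07). ConA mice ran from 65.9 to 286.9 CPM (-2.05, SE 0.42, edgeR adjusted p = 0.00428), and CCl4 mice from 196.3 to 295.9 CPM (-1.41, SE 0.18, edgeR adjusted p = 0.000336). The 4 GAL mice had 336.9, 162.4, 112.1 and 160.7 CPM (-1.75, SE 0.41, edgeR adjusted p = 0.0243), a call lost with library totals (-0.97) and without GAL mouse 4 or 8 or either CIP mouse. TAA mice stood at 430.8, 238.8, 253.9, 239.0 and 318.1 CPM (-1.02, SE 0.18, edgeR adjusted p = 8.026e-05). All mice of these 5 groups lay below every mouse of their route vehicle. ANIT (0.08, SE 0.17) and MDA (-0.39, SE 0.18, edgeR adjusted p = 0.0998) were not called, and without MDA mouse 1 the MDA value was -0.60 (edgeR adjusted p = 0.00463).

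Aldh2, the mitochondrial enzyme that clears acetaldehyde, was called with 3 of the 7 compounds against the route vehicle. The Ctrl range was 1476 to 2605 CPM, with a median of 2205, CIP mice stood at 2297 and 1800, and CIV mice at 2468 and 1694 CPM. CCl4 mice ran from 740.6 to 946.7 CPM, the lowest mean of the 10 groups under TMM (log2 fold change -1.25, SE 0.11, edgeR adjusted p = 3.877e-05). Of the other mice only APAP mouse 11 at 942.0 CPM lay in that range. Against all vehicles with library totals, ConA stood lower (-0.965) than CCl4 (-0.78). The 4 GAL mice had 1332, 1249, 1128 and 1166 CPM (-0.82, SE 0.15, edgeR adjusted p = 0.0124), but library totals gave -0.06 (edgeR adjusted p = 0.852) and without CIP mouse 7 the value was -0.61 (edgeR adjusted p = 0.0610). APAP mice ran from 942.0 to 1817 CPM (-0.66, SE 0.15, edgeR adjusted p = 0.00273). With ANIT, MDA, TAA and ConA Aldh2 was not called against the route vehicle, at -0.03, -0.15, -0.27 and -0.37. For ConA it passed against all vehicles (-0.31, SE 0.11, edgeR adjusted p = 0.0162) and, with library totals, against CIV (-1.02, edgeR adjusted p = 0.0149).

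Aldh3a2 is the microsomal enzyme that oxidises long-chain fatty aldehydes. The Ctrl range was 71.1 to 118.8 CPM, with a median of 83.3, CIP mice stood at 92.4 and 74.5, and CIV mice at 100.2 and 130.9 CPM. APAP mice ran from 13.4 to 40.0 CPM, all below every control (log2 fold change -1.89, SE 0.18, edgeR adjusted p = 6.849e-07), and CCl4 mice from 30.3 to 41.6 CPM (-1.23, SE 0.14, edgeR adjusted p = 0.000162). ConA mice ran from 18.0 to 78.2 CPM (-1.31, SE 0.45, edgeR adjusted p = 0.0481), a call lost with no filter on low counts, without either CIV mouse and without ConA mouse 2, 3, 4 or 5. The 4 GAL mice had 62.4, 31.9, 21.0 and 34.8 CPM, below both CIP mice, with a difference of -1.23 that missed the threshold (SE 0.39, edgeR adjusted p = 0.0559) and passed without GAL mouse 2 (-1.58, edgeR adjusted p = 0.00461). TAA (0.16, SE 0.14) and ANIT (-0.01, SE 0.15) were not called, and MDA narrowly missed (-0.30, SE 0.12, edgeR adjusted p = 0.0507).

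In order of mean level, most neighbouring groups overlapped. Over the 10 groups there are 9 neighbouring pairs for each gene. For Fmo1, Aldh1a1 and Aldh3a2 no pair was free of overlap. Fmo2, Fmo5, Adh1, Adh4, Aldh2 and Aox3 each had 1 such pair: ANIT stood above the next group for Fmo2, CIP for Fmo5, Adh1 and Adh4, GAL for Aldh2 and MDA for Aox3. The highest mean was 27.6 times the lowest for Fmo5, 24.8 times for Fmo2, 17.7 times for Aox3, 11.1 times for Adh4 and 2.45 times for Aldh2.

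Compounds given by the same route were also set against each other. ANIT against MDA called 0 of 9 members and 0 of 13360 genes by edgeR's quasi-likelihood test, with 1253 genes at an unadjusted p under 0.05. DESeq2 called 45 genes higher and 33 lower with ANIT, Aox3 among them as the 1 member, lower with ANIT (edgeR log2 difference -0.87, SE 0.21, edgeR adjusted p = 0.403). A p that misses the threshold does not show that the 2 compounds act alike. ANIT against APAP called 5 of 9 members, all higher with ANIT (5.98% of all genes called, 2.35% higher and 3.63% lower): Fmo2 by 3.12, Fmo5 by 2.61, Aldh1a1 by 1.93, Fmo1 by 1.88 and Aldh3a2 by 1.86 on the log2 scale. The Fmo1 call was lost without any 1 of the ANIT mice (values 1.78 to 2.02), and the count was 3 without ANIT mouse 2 or 3. APAP against MDA called the same 5, all lower with APAP (9.43%, with 5.38% higher and 4.05% lower), with Fmo2 at -3.69 and Fmo5 at -3.08.

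ANIT against TAA called 5 (26.2% of all genes called, 11.1% higher and 15.1% lower), with Fmo1, Fmo2, Fmo5 and Aldh1a1 higher with ANIT and Aox3 lower (-1.47, SE 0.47, edgeR adjusted p = 0.0437), a call lost in 6 of the 9 fits that left out 1 mouse. MDA against TAA called Fmo1, Fmo2 and Fmo5, all higher with MDA (30%, with 14.3% higher and 15.8% lower), and without TAA mouse 1 the count was 5, with Adh4 and Aldh1a1 added. APAP against TAA called Aldh3a2 alone of the 9, lower with APAP by a log2 value of -2.02 (SE 0.27, edgeR adjusted p = 0.00442; 2.62% of all genes called, 1.01% higher and 1.61% lower). CCl4 against GAL called 7 of 9 (42.5%, with 22.2% higher and 20.3% lower): Fmo1, Fmo5, Adh1, Adh4 and Aox3 were higher with CCl4, and Fmo2 and Aldh2 lower. The Fmo1 call was lost without GAL mouse 4, 7 or 8 and with library totals (0.54, edgeR adjusted p = 0.215). Adh4 differed most there, by 2.23 on the log2 scale (SE 0.31, edgeR adjusted p = 0.000172), with no overlap between the groups.

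Other enzymes of these families that passed were more often lower than higher with every compound but ANIT, where the split was near even. Of 29 related enzymes listed, 19 or 20 were tested. The calls higher and lower were 3 and 4 with ANIT, 3 and 12 with APAP, 4 and 7 with MDA, 3 and 14 with TAA, 3 and 10 with CCl4, 0 and 12 with GAL and 4 and 10 with ConA. All calls made up 7 of 19 tested with ANIT (28.2% of all genes were called), 15 of 19 with APAP (31.8%), 11 of 19 with MDA (33.8%), 17 of 19 with TAA (50.5%), 13 of 20 with CCl4 (33.5%), 12 of 19 with GAL (28.5%) and 14 of 20 with ConA (34.2%). The ANIT count was close to the all-gene share. Scaling by library totals in place of TMM changed that split to 1 higher and 7 lower with ANIT and to 3 higher and 6 lower with GAL. Aldh4a1 (proline breakdown), Aldh1b1 (a mitochondrial relative of Aldh2), Aldh1l1 (10-formyltetrahydrofolate dehydrogenase, of folate metabolism) and Aldh7a1 (lysine breakdown) were lower with all 7 compounds, and with library totals Aldh1b1 with CCl4 (-0.57, edgeR adjusted p = 0.05243) and Aldh7a1 with GAL (-0.62, edgeR adjusted p = 0.07062) no longer passed. Aldh4a1, at 185.6 to 276.8 CPM in Ctrl, gave log2 fold changes from -0.89 with ANIT to -2.28 with GAL. Aldh1l1 gave -0.47 with ANIT, -2.57 with CCl4 and -3.00 with GAL.

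Adh7, best known as the stomach form of alcohol dehydrogenase, was higher with MDA by 1.835 on the log2 scale (SE 0.36, edgeR adjusted p = 0.0005017), with Ctrl mice at 0.185 to 2.84 CPM and MDA mice at 1.55 to 12.3, and also with ANIT, TAA and ConA. Aldh1a3, another retinal dehydrogenase, had 0.754 to 7.01 CPM with APAP and 1.15 to 2.98 with TAA against 0.115 to 0.538 in Ctrl. At such control levels it may have passed the filter through the treated mice, so its place in the higher counts supports nothing. Aldh8a1, known for its part in tryptophan breakdown, gave the largest fall with TAA (-2.02), GAL (-3.52) and ConA (-2.87), and Aldh1b1 with ANIT (-1.04) and MDA (-1.58).

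Aldh1l2, the mitochondrial 10-formyltetrahydrofolate dehydrogenase, passed the filter only in the CCl4 comparison, where the CCl4 mice ran from 20.4 to 40.05 CPM, while CIP mice stood at 0.06 and 0.30 CPM. No mouse of the other 9 groups exceeded 0.307 CPM. Aldh3a1, best known from cornea and stomach, was tested with ConA only, where the mice ran from 0.90 to 5.34 CPM and the CIV mice stood at 0 and 0.03 CPM. Both genes passed the filter through the treated group alone, and each adds 1 to the higher count of that compound, so their fold changes and tests support nothing here.

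**Figure D3:**
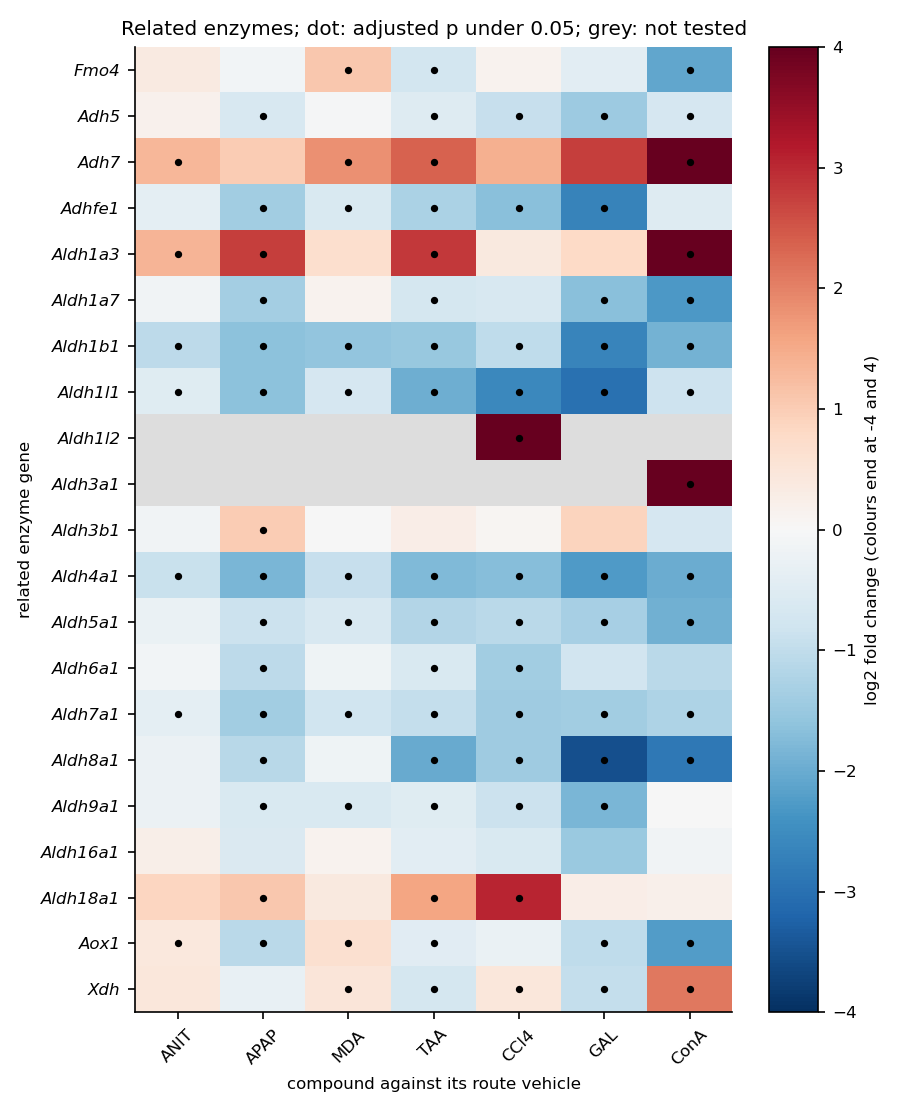
Log2 fold changes of the related enzymes against the route vehicle, 1 row per gene and 1 column per compound; red is higher, blue lower, dots mark an edgeR adjusted p under 0.05 and grey was not tested. Aldh4a1, Aldh1b1, Aldh1l1 and Aldh7a1 are blue with a dot in all 7 columns under TMM scaling.

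Genes that work beside these enzymes were also counted. Of 5 genes that make or fit the molybdenum cofactor used by Aox3, the numbers lower were 0 with ANIT, 4 with APAP, 1 with MDA, 3 with TAA, 3 with CCl4, 4 with GAL and 3 with ConA, and 1 was higher, with GAL. In the same order, 14.2%, 14.6%, 16.4%, 24%, 15.6%, 15.7% and 17.3% of all genes were called lower. Gphn, which inserts molybdenum into the cofactor, and Mocos, which adds the sulphur that aldehyde oxidases need, were each lower with APAP, TAA, CCl4, GAL and ConA, Mocos by -1.07 to -1.20 and Gphn by -1.04 to -1.72. With ANIT they stood at -0.04 and 0.04, beside the Aox3 value of -2.67. In ethanol and acetate metabolism, Acss2, which makes acetyl-CoA from acetate, was lower with all 7 compounds (-0.99 to -3.67), and the catalase gene Cat with 6. Of the other listed genes, Cyp2e1, which also oxidises ethanol, was lower with 3, and Acss1, a mitochondrial counterpart of Acss2, was tested with 1 compound and not called. The calls of the list, all lower, were 1 of 3 tested with ANIT, 3 of 3 with APAP, 2 of 3 with MDA, 2 of 3 with TAA, 3 of 3 with CCl4, 3 of 3 with GAL and 2 of 4 with ConA, beside the same shares of all genes.

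Of 11 retinoid genes, the calls higher and lower were 2 and 4 with ANIT, 1 and 6 with APAP, 3 and 5 with MDA, 1 and 4 with TAA, 0 and 8 with CCl4, 0 and 7 with GAL and 2 and 5 with ConA. In that order 28.2%, 31.8%, 33.8%, 50.5%, 33.5%, 28.5% and 34.2% of all genes were called, and the TAA count of 5 in 11 lay under its share. Dhrs3, which turns retinal back to retinol, was lower with all 7 (-1.11 to -3.68), and Cyp26a1, which breaks down retinoic acid, was higher with MDA (1.34) and lower with 5. Of 11 receptors and factors, the calls were 4 and 1, 0 and 5, 3 and 2, 3 and 6, 0 and 6, 1 and 2, and 3 and 3 in the same order of compounds, beside those same all-gene shares, and the GAL count of 3 in 11 was close to its share. Nr1i2, the pregnane X receptor, was higher with ANIT (0.88, SE 0.16, edgeR adjusted p = 0.000547) and MDA (1.15, SE 0.12, edgeR adjusted p = 6.332e-07) and lower with APAP, TAA, CCl4 and ConA. Cebpa, a hepatocyte factor, was lower with 6 compounds and stood at 0.03 with ConA.

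Among 8032 genes with a symbol and a mean of at least 5 CPM, the gene most like Fmo5 over the 57 mice was Nr1i2, with Pearson's r of 0.957 for log2(CPM + 1). Fmo2 gave 0.804 with Cdip1. Fmo1 was most like Ass1 (0.892) and Slc10a1 (0.889), Adh1 like Qprt (0.929) and Haao (0.928), and Adh4 like Arhgap42 (0.908) and Slc22a30 (0.899). Aldh1a1 was most like Bbox1 (0.936) and Mdh1 (0.901), Aldh2 like Dcxr (0.932) and Apoa2 (0.930), Aldh3a2 like Aldh1a1 (0.864) and Mgst1 (0.841), and Aox3 like Slc22a30 (0.945) and Rgn (0.928). The mice share treatments and vehicles, so these values describe the data set and are not tests.

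Hepatocyte markers were present in all groups, and zone markers moved with several results. The sum of 6 pericentral hepatocyte markers ran from 3709 to 5700 CPM in Ctrl, 89.6 to 3886 with APAP, 1635 to 5616 with TAA and 756.7 to 1181 with CCl4. It was 1874 to 2690 CPM with GAL against 4034 to 4909 in CIP. With ConA it was 1603 to 5552 CPM, overlapping the 4249 to 5106 of CIV. Of the MDA mice, 6 had 1352 to 3033 CPM, and MDA mouse 1, whose Fmo5 level of 446.9 CPM was the lowest of its group, had 5948. ANIT mouse 1, the highest of its group for Fmo5, had 2105 CPM of these markers and the other ANIT mice 4071 to 6033. APAP mice 8 and 11, with 93.9 and 89.6 CPM, were also the 2 lowest for Aox3. APAP mouse 1 had 3886 CPM of these markers, the highest of its group, but low Adh4 and the lowest Fmo5 of the 6. TAA mouse 1 had 5616 CPM, the highest of its group, and also the highest Fmo1, Fmo5, Adh1, Adh4, Aldh1a1, Aldh2, Aldh3a2 and Aox3. The same mouse was highest for periportal (1951 CPM), general hepatocyte (98140 CPM) and stellate cell sums (623.5 CPM). It was lowest for neutrophil and B cell sums (162.5 and 12.74 CPM) and had the group's lowest TMM factor, 0.7253. As a mean of log2(CPM + 1), the 6 pericentral markers stood at 7.711 with ANIT against 8.688 in Ctrl, and 7.687 with ConA against 8.749 in CIV. The sum of 6 periportal markers was 2099 to 3847 CPM in Ctrl, 998.0 to 1951 with TAA, 681.1 to 911.9 with GAL and 679.3 to 1018 with CCl4, and it was 1043 to 2359 with ConA against 2615 to 3121 in CIV. A sum of 5 general hepatocyte markers was 43680 to 50950 CPM in CIP, 16360 to 26120 with CCl4 and 22900 to 30750 with GAL. With ConA it was 33660 to 73680 CPM, overlapping the 40770 to 57760 of CIV. Kupffer cell markers summed to 34.8 to 66.4 CPM with ConA against 306.0 to 306.8 in CIV, and to 378.3 to 527.2 with GAL against 306.5 to 365.2 in CIP. Sinusoidal endothelial markers summed to 54.9 to 107.2 CPM with ConA against 131.2 to 142.9 in CIV, and to 76.1 to 106.1 with CCl4 against 121.5 to 158.2 in CIP. Of these endothelial markers, Lyve1 was not lower with any compound against the route vehicle (lowest log2 fold change 0.12). Neutrophil markers summed to 125.9 to 287.8 CPM with ConA against 7.83 to 10.5 in CIV, and to 162.5 to 850.6 with TAA against 3.10 to 67.9 in Ctrl. Neutrophil sums were 28.4 to 42.6 CPM with GAL and 11.0 to 79.0 with CCl4 against 5.35 to 5.85 in CIP, and APAP mice 8 and 11 had 205.7 and 277.8 CPM against 13.6 to 41.3 in the other 4. Monocyte and macrophage markers summed to 204.9 to 303.1 CPM with GAL against 92.4 to 138.0 in CIP, and to 153.8 to 258.4 with APAP against 56.3 to 162.4 in Ctrl. B cell markers summed to 1.40 to 5.19 CPM with ANIT and 0.994 to 3.90 with MDA against 5.60 to 12.1 in Ctrl. In some mouse of each of these 2 compounds, 3 of the 6 were at 0. With TAA the B cell sum was 12.7 to 21.9 CPM, above Ctrl. Cholangiocyte markers summed to 94.7 to 209.8 CPM with ConA against 27.1 to 60.5 in CIV, and stellate cell markers to 349.6 to 557.4 against 271.4 to 302.1. No hepatocyte, pericentral, periportal or Kupffer cell marker was at 0 in any mouse. The part of these markers in the member results was not tested.

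**Figure D4:**
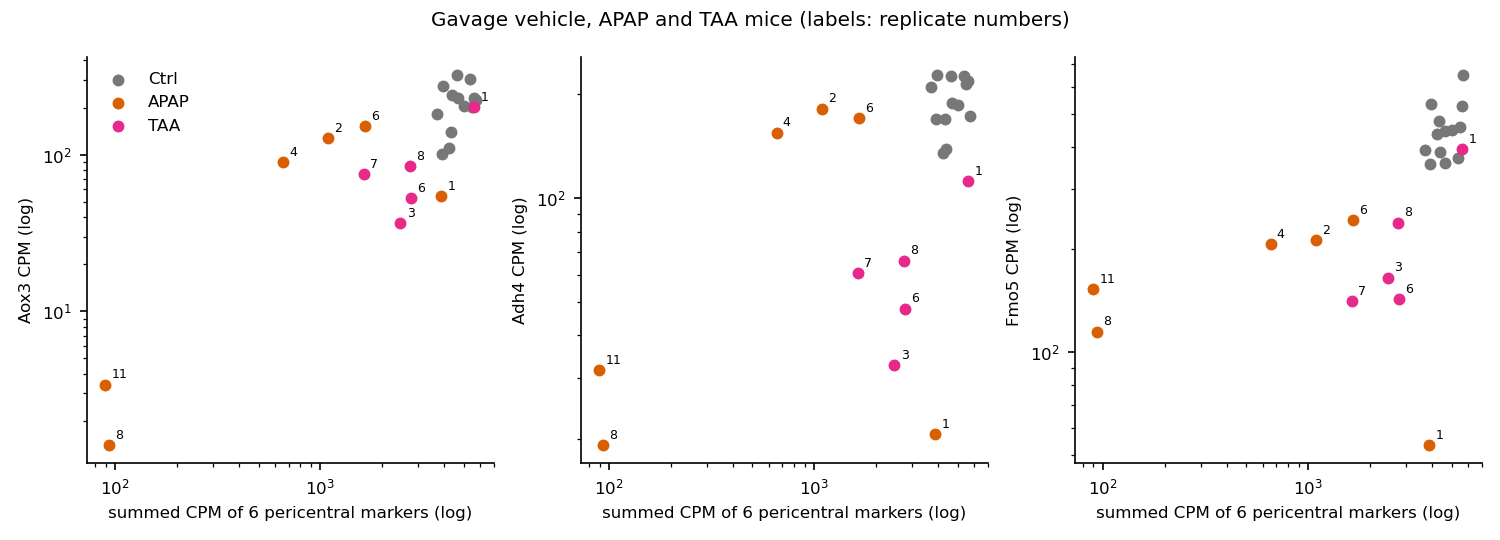
Aox3, Adh4 and Fmo5 in CPM against the summed CPM of 6 pericentral markers, both on log axes, for Ctrl, APAP and TAA mice, with replicate numbers beside the treated mice. APAP mice 8 and 11 lie lowest for Aox3 at marker sums of 93.9 and 89.6 CPM, and APAP mouse 1 combines a marker sum of 3886 CPM with 53.4 CPM of Fmo5.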

How the data were processed

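Gene-level estimated counts of 57 livers were read from the deposited table, 1 column a mouse. The submitters' processing notes name Salmon 1.6.0, R 4.1.3 and GRCm39, with no role given; libraries were stranded mRNA read single-end, per the labels' protocols, and strand use in counting is not given in the sources used here. The expected counts the authors deposited, which may carry a length correction, were rounded to whole numbers and fitted as counts. Symbols were matched for 51482 of 54307 IDs. Each comparison was fitted on its own groups with edgeR 4.0.16 (R 4.3.3, limma 3.58.1): TMM, filterByExpr, quasi-likelihood test, Benjamini-Hochberg adjustment over all genes tested, threshold 0.05. SE is the size of the log2 fold change divided by the square root of F. Each compound was compared with its route vehicle and with all 17 vehicle mice, and compounds of 1 route with each other. The fit was tested on simulated data. Alternatives were DESeq2 1.42.0, library totals, other filters, a replicate block, number ranges, 1 fit of all mice, and leaving out 1 mouse at a time (against vehicles, each treated or saline mouse; between compounds, each mouse of groups of up to 5). Named genes were all members, the 4 related enzymes called most often, the largest related rise and fall per compound, the 2 most often called genes of each other list, and the 2 genes most like each member. A few genes that met these rules are not reported here. Members and lists were chosen with earlier results of these data known. Promoter windows are RefSeq's, GRCm38.p6, and gene order is from the same assembly. The depth per library sets the precision of low genes such as Fmo2.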

Additional observations from a re-analysis of the deposited data

Results flagged for a closer look

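A mouse far from the others of its group was found in 3 of 63 combinations of a member and a group of 4 to 10 mice, where chance would give about 5 in 100. All 3 were TAA mice. TAA mouse 1 had 112.6 CPM of Fmo1, with the next mouse at 64.4, and 1855 CPM of Adh1, with the next at 975.3. TAA mouse 3 had 7.705 CPM of Fmo2, with the next at 3.43.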

How the results depend on the processing

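Member fold changes were repeated 2292 times under other settings. In 2009 repeats the sign and the side of the threshold were unchanged, in 139 a call no longer passed, in 60 a value newly passed, and in 83 the sign differed while neither value passed, which is counted here as no change of call. The 1 reversal was Adh4 with CCl4 against all vehicles, 0.447 with library totals. Counts of called members that moved by over 1.5 times were as follows. With the replicate block, ANIT called 2 (3 against all vehicles), APAP 2, and ANIT against APAP, ANIT against TAA, APAP against MDA and APAP against TAA 0 each; related enzymes were 2 for ANIT and 4 for APAP. Against the route vehicle the block ended the calls of Fmo5, Adh1 and Adh4 with ANIT, of Fmo1, Fmo5, Adh1 and Aldh2 with APAP and of Fmo2 with TAA, and against all vehicles those of Adh4 and Aox3 with APAP and Fmo1 with ConA, among others. No comparison with 3 or more shared numbers had every correlation of same-numbered deviations over 0.1. In none of them did every mouse correlate best with its own number. Against Ctrl, 3 of 4 shared numbers did so with APAP (mean r 0.066) and with TAA (mean r 0.158). With ANIT 1 of 4 did so and with MDA 1 of 7. These values do not settle whether replicate numbers pair the mice. No paired analysis was possible for CCl4 against CIP, ConA against CIV or CCl4 against GAL because each pair of groups shares 1 number; against all vehicles the block called 7 members for CCl4 and 7 for ConA, in place of 8 each. With only mice numbered 1 to 4, the counts were 3 for ANIT under both vehicle choices, 4 for APAP against all vehicles, 3 for MDA under both, 2 for TAA under both, and 6, 7 and 9 related enzymes for APAP, MDA and TAA. With 1 fit of all 57 mice they were 3 for ANIT under both vehicle choices and 3 for CCl4 against CIP. Library totals gave 2 for GAL against CIP. DESeq2 gave 1 for ANIT against MDA and 2 for APAP against TAA. Leaving out 1 mouse at a time gave 1 to 8 members for GAL against CIP, 3 to 6 related enzymes for ANIT (3 without ANIT mouse 3, 4 without ANIT mouse 4), 3 to 4 members for ANIT against APAP and 3 to 5 for MDA against TAA. Where this left 1 saline mouse, it was taken to vary as the treated mice do. The causes of these moves were not tested. With 2 mice in CIP and CIV and Fmo2 near 2 CPM in controls, small differences were not detectable.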
